A study of Mus musculus with 7 samples.

Results

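Gulo and 9 protein-coding genes close to it on mouse chromosome 14 were read in 7 Group 3 medulloblastomas (G3 MBs), a cerebellar tumor driven here by Myc. The members were Gulo, Clu, Scara3, Scara5, Adam2, Ccdc25, Esco2, Pbk, Ephx2 and Ptk2b, taken by name from the table of raw counts, 10 of its 34592 genes. Gulo was selected on its own values, because its counts were much higher in tumors labelled WDR11OE than in control tumors, so its levels are a description with no test. The other 9 were listed because they lie near it. All 10 passed the filter on low counts, which kept 17389 genes and asked for 0.242 CPM in at least 3 tumors. Adam2 reached that level in 0 control tumors and in all 4 tumors labelled WDR11OE, so it was kept only through the group where it is high.

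Gulo encodes L-gulonolactone oxidase, the enzyme of the last step of vitamin C (ascorbate) synthesis, which mice carry out mainly in the liver and which humans cannot carry out because their copy of the gene is broken. Its substrate comes from glucose through UDP-glucuronate, glucuronate and gulonate, and the ascorbate made is a cofactor of enzymes such as collagen prolyl hydroxylases and TET dioxygenases. Genes that sit side by side on a chromosome can share chromatin and regulatory DNA, although each has its own promoter and function.

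The series compared 4 tumors labelled WDR11OE with 3 control tumors by RNA-Seq, to ask what enforced expression of WDR11, a WD-repeat protein gene, does to the transcriptome. Every tumor came from 1 tumorsphere line (19568), made from cerebellar granule neuron progenitors of 7-day-old Trp53-/-; Cdkn2c-/- mice carrying a Myc-IRES-GFP retrovirus, so both groups share those alleles and that Myc vector. Dissociated spheres were infected with lentivirus carrying human WDR11 (pCDH-EF1-WDR11-T2A-copGFP) or the empty vector (pCDH-EF1-MCS-T2A-copGFP, although the labels give the control treatment as none), then implanted, without sorting, in the cortex of CD1 nu/nu hosts that were 6 to 8 weeks old. Tumor chunks were taken when the mice became moribund, so each tumor holds host cells too and was not taken at a set time, and nothing states which tumors shared a batch. The identifiers of the control and WDR11OE libraries belong to separate numbering series, so any difference in handling between the groups cannot be told apart from the vector. The p-values measure the spread between these tumors, all of 1 line.

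Library totals ran from 33417175 to 41397427 counts in the control tumors and from 32116095 to 87141305 in the WDR11OE tumors, and 3 counts, the limit that a count of 0 allows, were worth 0.0329 to 0.0924 CPM, a gene count scaled to the library total. The check of the introduced gene did not separate the groups. The row for human WDR11 read 2.03, 2.19 and 3.13 CPM in control 1 to 3 and 4.38, 2.11, 3.05 and 0.624 CPM in WDR11OE 1 to 4 (log2 fold change 0.05, standard error 0.58, edgeR adjusted p = 0.961). The control tumors, described as given the empty vector, thus held 73, 92 and 102 counts in that row. The source of those reads was not tested, so the row cannot show whether the introduced gene was expressed. Mouse Wdr11 read 58.3 to 59.3 CPM in the control tumors and 61 to 68.9 CPM in the WDR11OE tumors (log2 fold change 0.16, standard error 0.06, edgeR adjusted p = 0.091). Every direction given here is therefore between tumors that carry a label, and measurements of WDR11 by other assays in the study were not analysed here.

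Gulo stood far higher in every tumor labelled WDR11OE than in any control tumor. It read 18.3, 10 and 18.1 CPM in control 1 to 3. It read 372, 321, 217 and 174 CPM in WDR11OE 1 to 4. The groups did not overlap, and the lowest WDR11OE tumor was 9.5 times the highest control. Within the WDR11OE group the highest tumor was 2.14 times the lowest. The raw counts behind these levels were 420 to 658 in the control tumors and 7038 to 25691 in the WDR11OE tumors, well above the floor of 3 counts in every library.

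Over the 3 control tumors the mean was 15.5 ± 4.71 CPM (SD), and over the 4 tumors labelled WDR11OE it was 271 ± 91.4 CPM (SD). The ratio of these means was 17.5, and the fitted log2 fold change was 4.13 with a standard error of 0.37. Among the 17389 genes tested this change was 39th from the top. Per kilobase of exon, Gulo moved from 6.82 to 119.6 CPM per kb, that is from the 59.6th to the 97.4th percentile of tested genes with a known exon length. Gulo was thus already counted in the control tumors, at a middling level, and was among the more abundant transcripts in the other group. Gulo (ENSMUSG00000034450) has 1 annotated transcript with 12 exons on the minus strand of chromosome 14, from 66605624 to 66628047 in NCBIM37 (mm9).

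**Figure D1:**
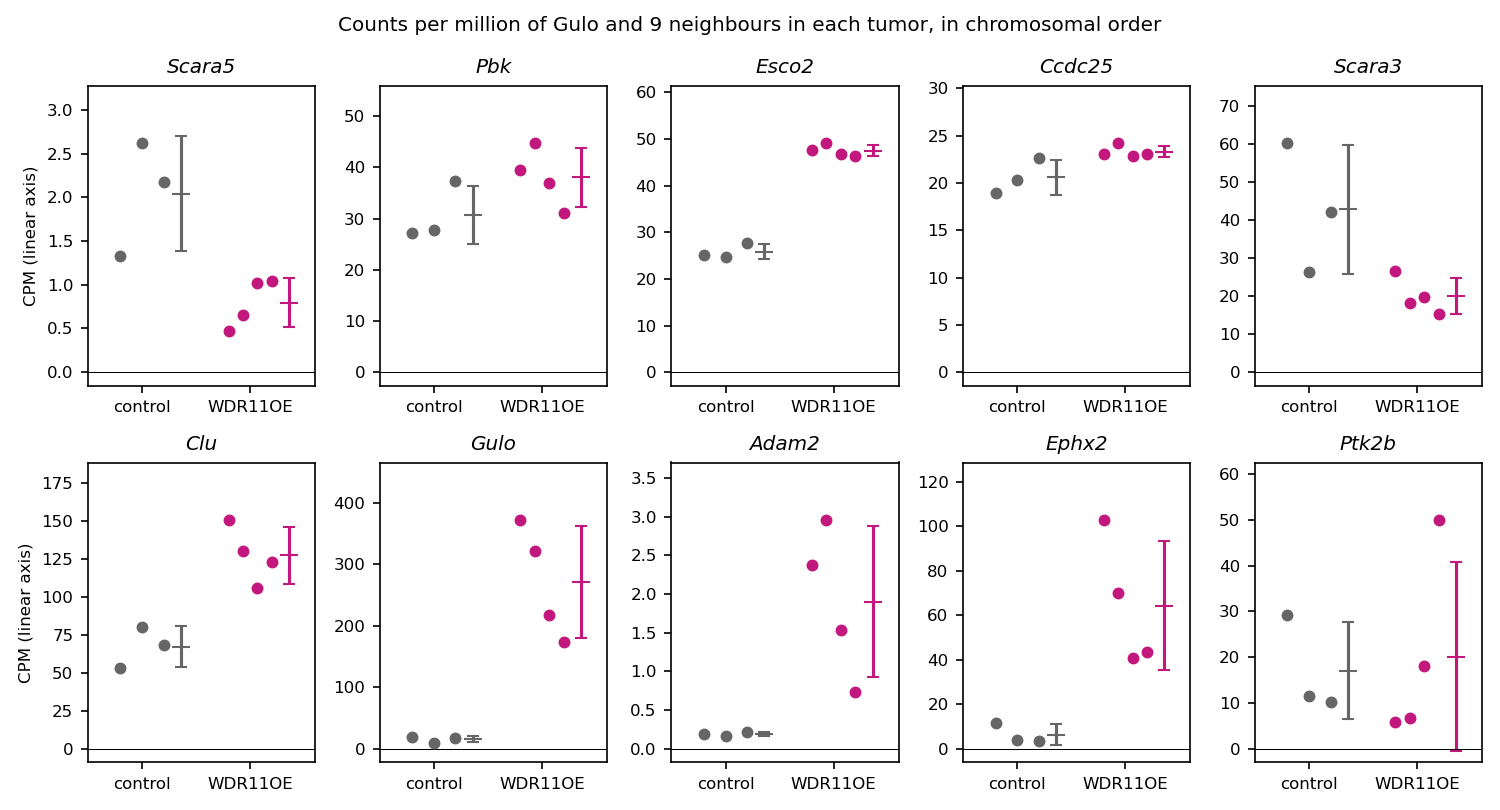
CPM (y axis, linear, a separate scale for each gene) of Gulo and its 9 neighbours in the 3 control tumors (grey) and the 4 tumors labelled WDR11OE (magenta), with the mean and SD beside each group. Gulo, Clu, Adam2, Ephx2, Esco2 and Ccdc25 (higher) and Scara5 (lower) show no overlap between the groups, and the SD bar of Ptk2b in WDR11OE tumors reaches just below 0 where 1 tumor read 50 CPM.

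Several genes around Gulo differed between the groups too. Of its 9 neighbours, 4 rose in the tumors labelled WDR11OE at an edgeR adjusted p under 0.05 (Clu, Adam2, Ephx2 and Esco2), where 18.1% of all genes tested were called higher, and 3 of these passed the filter in both groups. Another 2 fell (Scara3 and Scara5), where 15.8% of all genes were called lower, and Pbk, Ccdc25 and Ptk2b did not pass the test. Groups were apart with the WDR11OE tumors higher for 5 of the 9 (23.5% of all genes) and lower for 1 (19.1% of all genes). The median log2 fold change of the 9 was 0.31, beside 0.08 over all genes tested.

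Of the 4 rises, those of Ephx2 and Adam2, which follow Gulo toward higher coordinates, were the largest. Ephx2 encodes soluble epoxide hydrolase, which turns epoxides of fatty acids into diols, and like Gulo it is best known from the liver. It read 11.7, 4.1 and 3.25 CPM in control 1 to 3 and 103, 69.9, 41 and 43.7 CPM in WDR11OE 1 to 4. Control 1 was the highest of its group, yet the lowest WDR11OE tumor was 3.49 times that value. Ephx2 rose, with control and WDR11OE means of 6.36 ± 4.67 and 64.3 ± 28.8 CPM (SD; n = 3 and 4) and a log2 fold change of 3.34 (standard error 0.57, edgeR adjusted p = 0.00462), which was 4.12 without control 1. The exact permutation test over the 35 ways to choose 4 of 7 tumors gave p = 0.0286, the smallest it can give, two-sided. Ephx2 (ENSMUSG00000022040) lies on the minus strand from 66703214 to 66743337, with 20 exons over 2 transcripts.

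Adam2, between Gulo and Ephx2, encodes fertilin beta, a membrane protein of sperm that takes part in binding the egg. It was scarce in the control tumors, at 0.195, 0.167 and 0.215 CPM. In WDR11OE 1 to 4 it read 2.37, 2.96, 1.54 and 0.734 CPM. These levels rest on 7 counts in each of the 3 control tumors and on 100, 237, 50 and 67 counts in WDR11OE 1 to 4, all above the floor. Every WDR11OE tumor was at least 3.42 times the highest control. The log2 fold change was 3.30 (standard error 0.54, edgeR adjusted p = 0.00395, exact permutation p = 0.0286), and since Adam2 passed the filter only through the WDR11OE tumors, the test is given as a description. With no filter the log2 fold change was 3.25 (edgeR adjusted p = 0.00449). Even in the WDR11OE tumors Adam2 stood at 0.745 CPM per kb, the 19.7th percentile of tested genes. Adam2 (ENSMUSG00000022039) spans 66646166 to 66696570 on the minus strand in 21 exons.

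Clu, on the other side of Gulo, encodes clusterin, a secreted chaperone that is abundant in astrocytes. It read 53.1, 80.2 and 68.4 CPM in control 1 to 3 and 151, 130.1, 106 and 123 CPM in WDR11OE 1 to 4. The groups were apart, with a gap smaller than for the genes above: the lowest WDR11OE tumor was 1.32 times the highest control. Clu rose, with means of 67.3 ± 13.6 and 128 ± 18.7 CPM (SD; n = 3 and 4) and a log2 fold change of 0.93 (standard error 0.17, edgeR adjusted p = 0.00574, exact permutation p = 0.0286). Clu (ENSMUSG00000022037) lies on the plus strand from 66587320 to 66600385, with 9 annotated transcripts, and its end faces the end of Gulo across 5.2 kb.

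Ratios within each tumor do not depend on how the libraries were scaled, and only their change between tumors is read here, since the genes differ in length. Gulo over Clu was 0.344, 0.125 and 0.264 in control 1 to 3 and 2.46, 2.46, 2.04 and 1.41 in WDR11OE 1 to 4, with no overlap between the groups. Gulo over Ephx2 was 1.56, 2.44 and 5.56 in the control tumors and 3.62, 4.59, 5.29 and 3.98 in the others. Those values overlap: the groups were not apart in the ratio of Gulo to Ephx2, whose control values vary widely. Gulo over Adam2 was 94, 60 and 84.1 against 157, 108, 141 and 237. That ratio rests on 7 Adam2 counts per control tumor.

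Esco2, Pbk and Ccdc25 form a tight trio at lower coordinates. Esco2 encodes the acetyltransferase that locks cohesin onto sister chromatids in S phase. It was among the most even of the members, at 25.2, 24.6 and 27.7 CPM in control 1 to 3 and 47.7, 49.1, 46.7 and 46.4 CPM in WDR11OE 1 to 4. No tumor of either group came near the other group. Esco2 rose with a log2 fold change of 0.88 (standard error 0.07, edgeR adjusted p = 0.000859, exact permutation p = 0.0286). Its exons hold 39% GC, the lowest of the 10 members, and with a trend on GC content removed from each library the log2 fold change was 0.43 (edgeR adjusted p = 0.012). Esco2 (ENSMUSG00000022034) lies on the minus strand from 66437875 to 66452831.

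Pbk (ENSMUSG00000022033, plus strand, 66424674 to 66436659) encodes PDZ-binding kinase, a mitotic kinase, and ends 1.2 kb before Esco2. It read 27.1, 27.7 and 37.3 CPM in control 1 to 3 and 39.4, 44.7, 37 and 31 CPM in WDR11OE 1 to 4. Control 3 lay above WDR11OE 3 and 4, so the groups overlapped, and at a log2 fold change of 0.31 (standard error 0.16) Pbk was not called (edgeR adjusted p = 0.185). Ccdc25 (ENSMUSG00000022035, plus strand, 66456139 to 66485441), a coiled-coil protein gene 3.3 kb past Esco2, read 18.9, 20.3 and 22.6 CPM against 23.1, 24.2, 22.9 and 23.1 CPM. The WDR11OE values all lay above the controls, the lowest at 1.01 times the highest control. Ccdc25 was not called either, at a log2 fold change of 0.18 (standard error 0.09, edgeR adjusted p = 0.166), which was 0.01 with the GC trend removed. The summed level of 12 markers of proliferation was 1965 to 2527 CPM in the control and 2361 to 2809 CPM in the WDR11OE tumors. Of the 12, 6 rose (50%) and 1 fell (8.33%), beside 18.1% and 15.8% of all genes tested. Among the most abundant, Top2a rose from 614 to 997 CPM, while Mki67 averaged 818 and 666 CPM (log2 fold change -0.30, edgeR adjusted p = 0.0949). Plk1 was the marker that fell, by 0.72 on the log2 scale. The exons of the 6 that rose hold 40.5% to 48.1% GC, those of Mki67 46.6% and those of Plk1 56%. Values of these markers with the GC trend removed are not given here. The part of proliferation in the levels of Esco2 and Pbk was not tested.

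The pair of class A scavenger receptor genes fell. Scara3 encodes a receptor linked to protection from oxidative stress. It read 60.1, 26.3 and 42 CPM in control 1 to 3 and 26.5, 18.2, 19.8 and 15.4 CPM in WDR11OE 1 to 4. WDR11OE 1 lay just above control 2, so the groups touched. The log2 fold change was -1.10 (standard error 0.29, edgeR adjusted p = 0.0238, exact permutation p = 0.0571). Scara3 (ENSMUSG00000034463) lies from 66538232 to 66572581 on the minus strand, 14.7 kb before Clu. The call was lost without control 1, control 3, WDR11OE 2 or WDR11OE 3, where the edgeR adjusted p lay between 0.0579 and 0.0716. The log2 fold change was -0.78 without control 1 and -1.12 to -1.09 without one of the other 3.

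Scara5 (ENSMUSG00000022032) encodes a ferritin receptor and lies farthest of the members toward lower coordinates, from 66285240 to 66383663 on the plus strand. It was rare, at 1.33, 2.62 and 2.18 CPM in control 1 to 3 and 0.474, 0.649, 1.02 and 1.04 CPM in WDR11OE 1 to 4. Here the groups did not overlap. The log2 fold change was -1.36 (standard error 0.37, edgeR adjusted p = 0.0266, exact permutation p = 0.0286), from 48 to 110 counts in control and 20 to 95 counts in WDR11OE tumors. Without control 2, control 3 or WDR11OE 2 the adjusted p lay between 0.0582 and 0.0963. In the same tumors the summed level of 10 fibroblast markers was 3681 to 4509 CPM in control and 1478 to 1899 CPM in WDR11OE tumors. Of the 10, 5 fell (50%), beside 15.8% of all genes tested. Col3a1 made up 73.2% of that sum in control and 65.3% in WDR11OE tumors, while Dcn averaged 8.95 and 18.6 CPM and Lum 4.82 and 6.63 CPM, neither called. The part of these markers in the fall of Scara3 and Scara5 was not tested, and in bulk tumors fewer cells of a type and less RNA per cell cannot be told apart.

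Ptk2b (ENSMUSG00000059456, minus strand, 66772094 to 66899889), at the far end of the list, encodes the focal adhesion family kinase PYK2, which is abundant in forebrain neurons. It read 29.2, 11.5 and 10.3 CPM in control 1 to 3 and 5.78, 6.67, 18 and 50 CPM in WDR11OE 1 to 4. It varied most among the members, with an 8.66-fold range inside the WDR11OE group. The log2 fold change of 0.24 (standard error 0.80, edgeR adjusted p = 0.847) was -0.75 without WDR11OE 4 and -0.02 without control 3. The summed level of 10 neuron markers was 467, 155 and 76.1 CPM in control 1 to 3 and 13.1, 30, 218 and 704 CPM in WDR11OE 1 to 4. WDR11OE 4 and control 1 were thus the highest of their groups for Ptk2b and for the neuron markers alike. The part of neuron RNA in the level of Ptk2b was not tested.

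**Figure D2:**
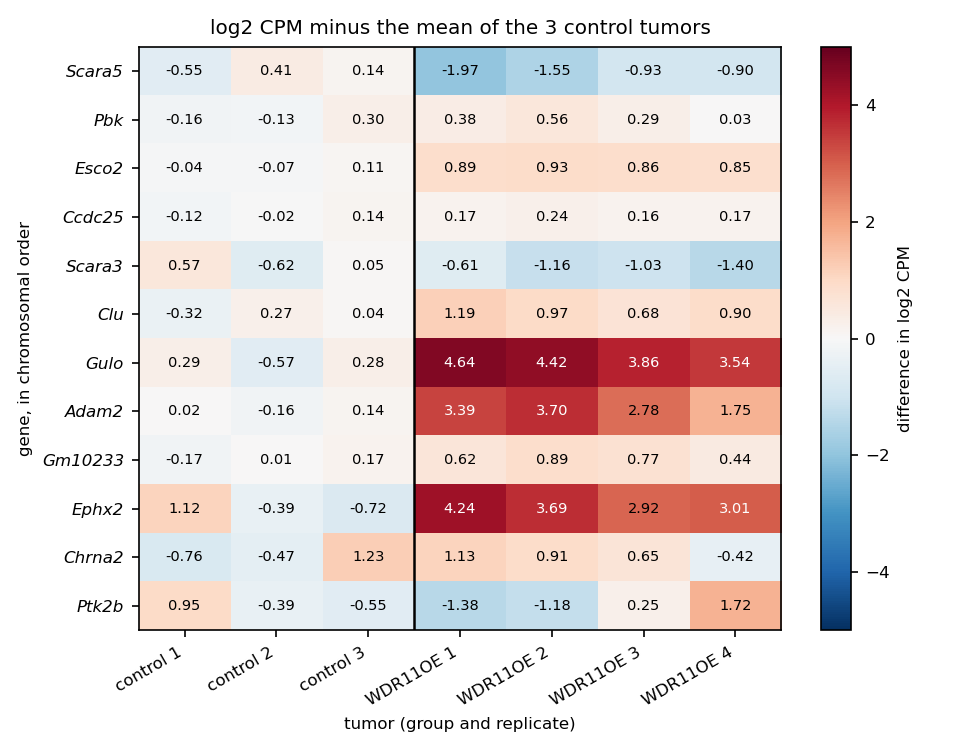
Each cell gives log2 CPM of 1 gene (rows, in chromosomal order) in 1 tumor (columns) minus the mean of the 3 control tumors, in log2 units. Gulo reads 3.54 to 4.64 in the WDR11OE tumors, with Adam2 and Ephx2 the next strongest rows, while Scara3 and Scara5 are below 0 and Ptk2b changes sign between tumors.

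The position of these genes was read from the GENCODE annotation of the same build. Along the chromosome Clu, Gulo, Adam2, Gm10233 and Ephx2 were an unbroken run of annotated genes that were higher in the tumors labelled WDR11OE, from 66587320 to 66743337. Gulo is in this run by selection, and Adam2 passed the filter only through the WDR11OE tumors. Of all genes tested, 18.1% were called higher, and the run was not tested as a run. The gaps between annotated spans were 5.2 kb from Clu to Gulo, 18.1 kb from Gulo to Adam2, and 38.7 kb from Gm10233 to Ephx2. Gulo, Adam2 and Ephx2 lie on the minus strand, so each of these gaps runs up to the end of the later gene and not to its promoter. The gap from Gulo to Adam2 begins at the promoter side of Gulo. Gm10233, a pseudogene inside Adam2 on the opposite strand, had means of 6.99 ± 0.823 and 11.2 ± 1.49 CPM in the control and WDR11OE groups (SD; n = 3 and 4; log2 fold change 0.68, edgeR adjusted p = 0.0158). Its 630 bases all overlap the span of Adam2. The labels name the TruSeq RNA Library Preparation Kit v2, which does not mark strand, and the methods describe stranded data, so reads of the overlap cannot be assigned to a strand here, and Adam2 and Gm10233 are uncertain to that extent.

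The run ended on both sides. Scara3, the next gene before Clu, was lower in the WDR11OE tumors. Chrna2, a nicotinic receptor subunit gene 16.5 kb past Ephx2, read 0.75, 0.93 and 3.1 CPM in control 1 to 3 and 2.89, 2.47, 2.06 and 0.964 CPM in WDR11OE 1 to 4. Those values overlap, and Chrna2 was not called, at a log2 fold change of 0.40 (edgeR adjusted p = 0.647). Ptk2b follows 0.3 kb later.

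**Figure D3:**
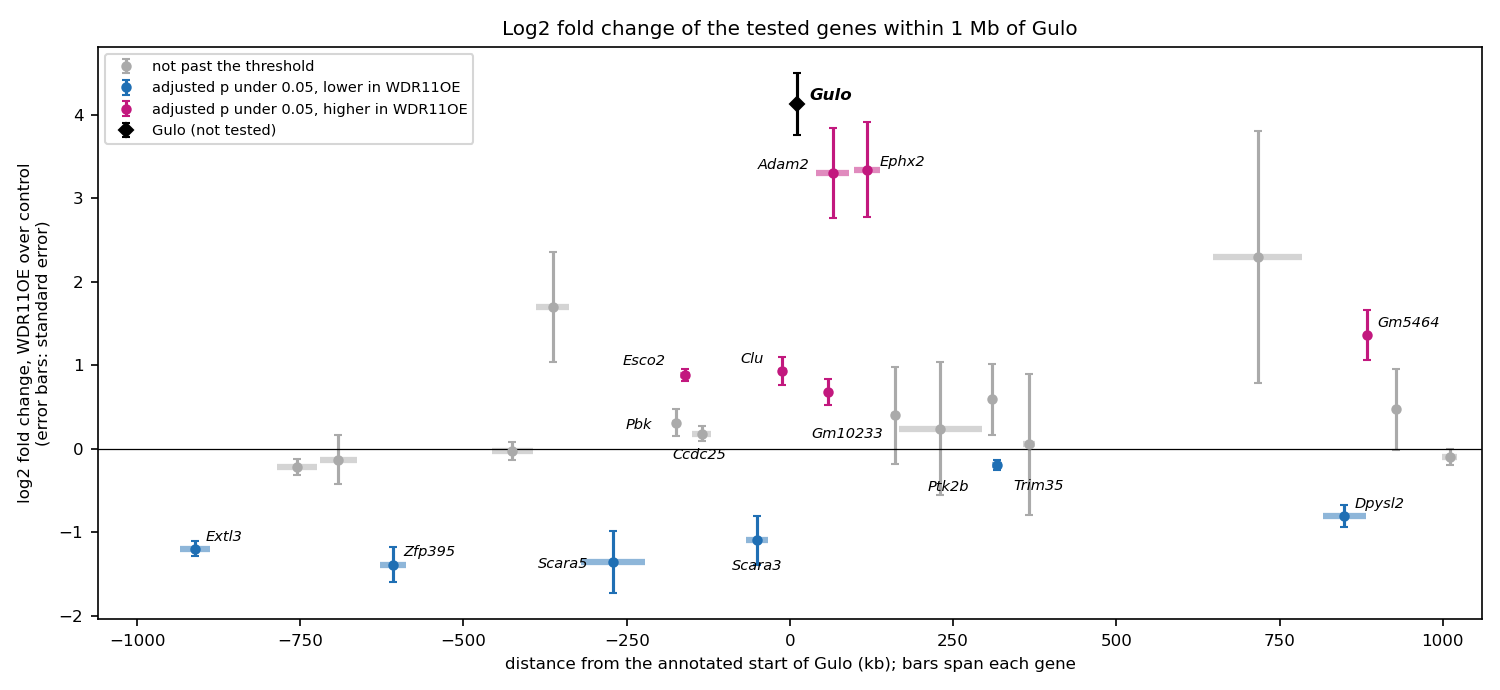
Log2 fold change, WDR11OE over control, with its standard error (y axis) of the tested genes whose start lies within 1 Mb of the start of Gulo, against distance in kb (x axis, horizontal bars span the genes). Magenta and blue mark edgeR adjusted p under 0.05, higher and lower, grey marks genes not past it, and Adam2 and Ephx2 at 3.30 and 3.34 stand next to Gulo at 4.13, which was not tested.

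The wider interval held calls in both directions. Within 1 Mb of the start of Gulo lay 29 other genes, of which 25 were tested, 6 rose and 6 fell, that is 24% in each direction. Of all genes tested, 18.1% were called higher and 15.8% lower. Over all of chromosome 14, 90 of 644 tested genes rose (14%) and 99 fell (15.4%). Adam2, among the 6 that rose, passed the filter only through the WDR11OE tumors. Besides the members and Gm10233, the called genes of the interval were Gm5464 (log2 fold change 1.36), which lies beside Dpysl2, and Extl3, Zfp395, Trim35 and Dpysl2, at -1.20, -1.39, -0.20 and -0.81. Extl3 and Dpysl2, an exostosin-like glycosyltransferase gene and a gene of axon growth, were among the more strongly expressed, at 135 and 240.1 CPM in control and 58.7 and 137 CPM in WDR11OE tumors.

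The order of the members by level also differed between groups. Per kilobase of exon, the control tumors ran Clu (19.6 CPM per kb), Pbk (17.1), Scara3 (12.6), Ccdc25 (9.24), Gulo (6.82), Esco2 (6.44), Ephx2 (2.93), Ptk2b (2.3), Scara5 (0.336) and Adam2 (0.0753). Clu and Pbk, Pbk and Scara3, Scara3 and Ccdc25, Gulo and Esco2, and Ephx2 and Ptk2b overlapped between tumors and could not be ordered. Clu and Scara3, Scara3 and Gulo, and Gulo and Ephx2, which are not adjacent in this order, also had overlapping ranges. In the WDR11OE tumors Gulo came first at 119.6 CPM per kb, from 76.7 to 164 over the 4 tumors, with no overlap with Clu at 37.2. Ephx2 followed at 29.7 CPM per kb and overlapped both Clu and Pbk. Scara5 came last at 0.13 CPM per kb.

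The genes with profiles most like that of Gulo lay elsewhere. Likeness was measured as the root mean square, over the 7 tumors, of the difference in log2 CPM after subtracting the control mean, so a gene that moved by the same amount in the same tumors scores near 0. The 5 nearest of 17388 genes were Myoz1 (0.39), Gm10715 (0.43), Pnma5 (0.49), Allc (0.57) and Mylpf (0.60), on chromosomes 14, 9, X, 12 and 7. Ephx2 came 15th at 0.72 and Adam2 33rd at 0.98, and Clu and Esco2, with smaller changes, came 936th and 1050th. Myoz1 and Mylpf encode proteins of skeletal muscle, Allc allantoicase, and Pnma5 a paraneoplastic antigen family member. Myoz1, on chromosome 14 but at 21468324 to 21475762 and so far from Gulo, had at most 2 counts in a control tumor and 48 to 78 counts in the WDR11OE tumors, and Gm10715 had at most 1 count in a control tumor. Both passed the filter only through the WDR11OE tumors, and their place in this order depends on the prior count of 2, since the fitted log2 fold changes were 4.96 for Myoz1 and 5.42 for Gm10715 against 4.13 for Gulo. Pnma5, Allc and Mylpf, with 5 to 13 counts in a control tumor, also rest on few counts there.

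Markers of other cells were read beside these results. Of 16 hepatocyte markers, 7 passed the filter and 0 were called by edgeR or limma voom, against 1 by DESeq2 and 1 at an unadjusted p under 0.05, with a summed level of 3 to 9.73 CPM in control and 2.49 to 4.44 CPM in WDR11OE tumors. Alb, the defining product of hepatocytes, averaged 0.0902 CPM in control and 0.0633 CPM in WDR11OE tumors and did not pass the filter. Markers of astrocytes, which express Clu, summed to 975, 909 and 693 CPM in control 1 to 3 and to 412, 444, 719.8 and 1129.9 CPM in WDR11OE 1 to 4. WDR11OE 1, the tumor highest in Clu, was the lowest in that sum. Of the 10 astrocyte markers 1 rose (10%) and 1 fell (10%), beside 18.1% and 15.8% of all genes tested. S100b averaged 44.8 and 86.1 CPM with no overlap (log2 fold change 0.94, edgeR adjusted p = 0.00359), and Sox9 fell by 1.53 on the log2 scale. Of 14 markers of sperm and testis 5 were at 0 in every tumor, among them Prm1 and Prm2, and of the 3 that passed the filter 0 were called by edgeR, limma voom or DESeq2 and 0 had an unadjusted p under 0.05.

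Markers of skeletal muscle did move with the group: 11 of 12 rose (91.7%). Over all genes tested, 18.1% were called higher and 15.8% lower. The sum of the muscle markers was 10.1 to 17.3 CPM in control and 70.7 to 185 CPM in WDR11OE tumors. Of the 12 muscle markers, 5 passed the filter on low counts only through the WDR11OE tumors. The order of the tumors differed from that of Gulo, since the muscle sum read 129, 79.2, 185 and 70.7 CPM in WDR11OE 1 to 4. Endothelial markers summed to 176 to 229.8 CPM in control and 129 to 163 CPM in WDR11OE tumors, with 3 of 10 lower (30%). Markers of microglia and macrophages summed to 157 to 288 and 136 to 259 CPM. Of these, 0 of 10 were called by edgeR, limma voom or DESeq2 and 0 had an unadjusted p under 0.05. Choroid plexus markers summed to 5.88 to 16 CPM in control and 6.77 to 28.8 CPM in WDR11OE tumors, where Aqp1 made up 81.8% of the sum. Aqp1 had a log2 fold change of 2.14, against -2.83 for Ttr, -1.33 for Kl and for Clic6, and -0.78 for Sostdc1. Of these 5 tested markers edgeR called 1, Clic6, lower (20%). DESeq2 called 3, and all 5 had an unadjusted edgeR p under 0.05. Markers of the granule lineage and of medulloblastoma summed to 869 to 1165 CPM in control and 338 to 479 CPM in WDR11OE tumors. Myc, the gene of the retrovirus, averaged 914 and 347 CPM and made up 94% and 84.1% of that sum, which thus mainly reads Myc. Of the 8 markers tested only Myc was called, and the median log2 fold change of the 8 was 0.22. The part of any of these cells in the levels of Gulo and its neighbours was not tested.

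Few other genes of the vitamin C pathway rose. Over 3 lists, 41 of 50 listed genes were tested, 3 rose (7.32%) and 9 fell (22%), beside 18.1% and 15.8% of all genes, with a median log2 fold change of -0.11. Of the enzymes that supply the substrate, 8 were tested, 1 rose and 1 fell. Ugp2, which makes UDP-glucose, read 28.5, 39.3 and 34.5 CPM in control 1 to 3 and 48, 48.6, 44.6 and 49.1 CPM in WDR11OE 1 to 4 (log2 fold change 0.48, edgeR adjusted p = 0.0149), with no overlap. Gusb, the lysosomal beta-glucuronidase, fell by 0.54 on the log2 scale (edgeR adjusted p = 0.0383) with overlapping groups. Akr1a1, the reductase that makes gulonate, averaged 229 CPM in both groups. Rgn, the lactonase of the step just before Gulo, had 0 to 7 counts in any tumor and did not pass the filter.

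Of the transporters and recycling enzymes, 13 were tested, 1 rose (7.69%) and 2 fell (15.4%), beside 18.1% and 15.8% of all genes tested. Slc23a2, the main ascorbate transporter of the brain, had means of 38.1 ± 2.39 and 35.1 ± 13.7 CPM in the control and WDR11OE groups (SD; n = 3 and 4; edgeR adjusted p = 0.783). Slc23a1, the transporter of gut and kidney, had 0 to 5 counts in any tumor. Glrx, a glutaredoxin, rose with a log2 fold change of 0.49. Slc2a10 and Txnrd1, a glucose transporter family member and a thioredoxin reductase, fell by 0.82 and 0.44.

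Of the enzymes that use ascorbate, 20 were tested, 6 fell (30%), 1 rose (5%) and 13 did not pass, with a median log2 fold change of -0.29. Calls in either direction made up 35% of the list and 33.9% of all genes tested. Leprel1, a collagen prolyl 3-hydroxylase, fell, with means of 42 ± 7.29 and 15.3 ± 2.28 CPM (SD; n = 3 and 4) and a log2 fold change of -1.46 (edgeR adjusted p = 0.00117). Tet3, a dioxygenase that oxidises 5-methylcytosine, fell with a log2 fold change of -1.12, its means being 231 ± 24.4 and 106 ± 18 CPM (SD; n = 3 and 4) (edgeR adjusted p = 0.00155). Neither of these overlapped between groups. Hif1an, the asparaginyl hydroxylase of HIF, fell by 0.30, and Tmlhe, of carnitine synthesis, rose by 1.26 with overlapping groups. Among 5 tested genes for other uses of glucuronate, only Xylb, a xylulokinase, was called, at a log2 fold change of -0.76. The counts over the 3 lists and over all genes both moved with single tumors. The 3 that rose were 0 without WDR11OE 1 and 1 without control 1 or without WDR11OE 2, and the 9 that fell were 3 without WDR11OE 1 and 5 without control 3, WDR11OE 2 or WDR11OE 4. Of all genes tested, 9.12% were called higher and 11.8% lower without WDR11OE 1, and 9.65% and 12.8% without WDR11OE 2.

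**Figure D4:**
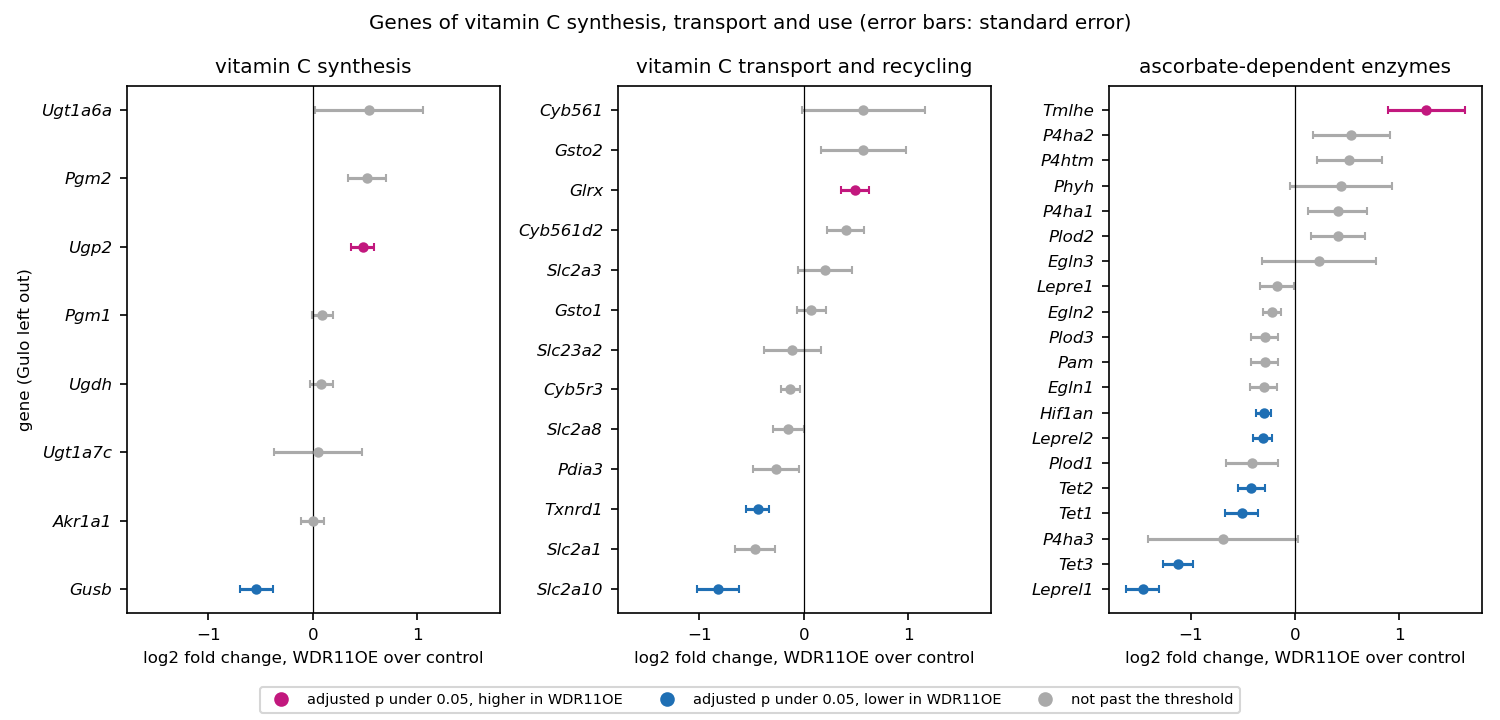
Log2 fold change, WDR11OE over control, with its standard error (x axis) for each tested gene (y axis) of vitamin C synthesis, of its transport and recycling, and of ascorbate-dependent enzymes, Gulo left out. Magenta and blue mark edgeR adjusted p under 0.05, higher and lower: 1 and 1 of 8, 1 and 2 of 13, and 1 and 6 of 20 genes.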

How the data were processed

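Total RNA of tumor chunks was sequenced in 3 control and 4 WDR11OE tumors. The authors deposited raw counts per gene, read here as deposited. The methods name a mapping to NCBIM37 (mm9) and HTSeq counts on GENCODE, and the submitters' processing notes list CASAVA 1.7, STAR, BWA and HTSeq with no role. The strand setting of the counting was not given in the sources used here. Groups came from the labels. Replicates were numbered in accession order.

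Counts were tested in R 4.3.3 with edgeR 4.0.16 (TMM scaling, filterByExpr, quasi-likelihood test on condition, two-sided, Benjamini-Hochberg over 17389 genes). A gene was called at an adjusted p under 0.05. CPM values are TMM-scaled, and log2 CPM has a prior count of 2. Gulo was given no p. Single neighbours were also compared by a two-sided exact permutation test of mean log2 CPM. Positions, exons and GC content came from GENCODE M1, which matched 33606 of the 34592 rows. Distance from Gulo runs between lower coordinates, which are called starts here whatever the strand. A gap runs from the higher coordinate of one gene to the lower coordinate of the next. The fit was tested on simulated data with 200 changed genes. In these tumors 5894 genes were called, so that check does not cover changes this widespread.

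The members and the gene lists were chosen with earlier results of these data known, so no test was run over a list. Named were the members, the 5 genes on either side of Gulo, the called genes within 1 Mb of it, Wdr11, the called pathway genes with the smallest p (up to 3 in each direction and list), the 5 profiles most like Gulo, the most abundant marker of a list where a result touched it, and Rgn, Slc23a1, Slc23a2 and Akr1a1. Alb, Prm1 and Prm2 were added as defining markers, Mki67, Plk1, S100b, Sox9, Dcn and Lum beside their lists, and the human WDR11 row as the check of the vector, after their values were seen. Alternatives were limma voom (limma 3.58.1), the method of the study, DESeq2 1.42.0, other scalings and filters, a GC trend removed, each tumor left out, other interval widths, a 2-fold limit, and 2 libraries summed. Promoter and protein sequences were not used here. Intervals and floors cover counting error only.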

Additional observations from a re-analysis of the deposited data

How the results depend on the processing

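The log2 fold change of Gulo stayed between 3.90 and 4.30 over 16 alternatives, both ends from leaving out 1 tumor. Clu, Adam2, Ephx2 and Esco2 kept their direction and their calls in the same alternatives, at 0.78 to 1.08, 2.97 to 3.57, 2.99 to 4.12 and 0.43 to 0.93, with adjusted p up to 0.0275. Adam2 passed the main filter only through the WDR11OE tumors, so its calls remain a description. The 4 higher neighbours were 2 with a change of at least 2-fold also required. The 2 lower neighbours were 0 to 2 with single tumors left out, 0 without control 3 or without WDR11OE 2. Ptk2b, never called, was -0.03 with limma voom, and -0.75 to 0.88 with single tumors left out, of which -0.02 without control 3 and -0.75 without WDR11OE 4. Within 1 Mb of Gulo the 6 higher genes were 3 with 2-fold required, and the 6 lower genes were 3 within 0.5 Mb, 11 within 2 Mb, and 3 to 5 with single tumors left out, the lowest without control 3 or WDR11OE 2. Of the vitamin C genes, the 3 higher were 1 with no filter, 1 with 2-fold required and 0 to 4 with single tumors left out. The 9 lower were 2 with 2-fold required and 3 to 7 with single tumors left out. WDR11OE 1 and 2 share a number in their titles that no source explains, and with their counts summed into 1 sample, an alternative added after seeing the data, 0 vitamin C genes were higher and 3 lower (over all genes, 9.51% and 12.2% in place of 18.1% and 15.8%), while the calls of the 9 neighbours were unaltered. All other tabulated counts stayed within 1.5 times. Unless a sentence above says otherwise, the cause was not tested. No paired analysis was possible because the labels give the groups no shared replicate numbers. Depth limits the fold of Adam2, which had 7 counts in each control tumor.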
